A study of Sus scrofa with 4 samples.

Results

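The acute-phase genes described here are 6 features of a pig meniscus single-cell RNA data set: HPS5 (ENSSSCG00000037358), the unnamed feature ENSSSCG00000013369, LCN2 (ENSSSCG00000005638), LBP (ENSSSCG00000028758), CP (ENSSSCG00000011700) and CHI3L1 (ENSSSCG00000015476). They were chosen by symbol or identifier, and all 6 were found among the 21280 features counted. They were proposed with earlier results on white zone and COL2A1-expressing cells in view, so their levels and their difference between zones are given as a description, with no test. Their difference between the lateral and the medial meniscus was not used in the choice and was tested.

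The meniscus is the fibrocartilage pad of the knee. Its outer red zone carries blood vessels, and its inner white zone has none and resembles cartilage. The labels give 4 libraries of digested pig (Sus scrofa) tissue, 1 each from the lateral red, medial red, lateral white and medial white zone, with no treatment and no strain, age or animal named. The libraries are the only replicates, and whether both menisci came from the same animal is not given, so every p-value concerns only these 4 samples. With so few libraries the p-values rest largely on a spread estimated over many genes together. They do not measure the spread of the single gene between libraries.

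Acute-phase proteins are secreted in quantity when interleukin 6 and interleukin 1 signal through STAT3, C/EBP and NF-kappaB, mainly by the liver but also by chondrocytes and other stromal cells. Serum amyloid A proteins are among the most strongly induced of them. LCN2 binds the siderophores with which bacteria capture iron, LBP hands bacterial lipopolysaccharide to CD14 and TLR4, and CP (ceruloplasmin) is a copper-carrying enzyme that oxidises iron. CHI3L1, a chitinase-like lectin without enzyme activity, is a known secretory product of chondrocytes. HPS5 is of another kind: it is a subunit, with HPS3 and HPS6, of the BLOC-2 complex that sorts cargo to lysosome-related organelles.

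The libraries held 5753 (lateral red), 6840 (medial red), 7382 (lateral white) and 7807 (medial white) barcodes, with 9666319, 11878284, 13719381 and 14902274 unique molecular identifiers (UMIs, each counting 1 captured transcript). After filtering, 27689 of 27782 barcodes were kept, with medians of 1472.5, 1492, 1495 and 1617 UMIs a cell. Between 33 and 46 barcodes in each library also occurred in another, 78 distinct barcodes in all, and leaving them out changed no member's call. COL2A1, the collagen of cartilage, had at least 1 UMI in 129, 72, 4323 and 3669 cells in the same order. These cells are called COL2A1-expressing below, and the red zone therefore contributes few of them.

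The COL2A1-expressing cells of the white zone carried cartilage markers. Of 8 other chondrocyte markers, 8 (lateral) and 7 (medial) had UMIs in the white zone and 7 in each red zone library, with summed levels of 5394 and 5810 CPM (counts-per-million, a gene's UMIs scaled by all UMIs of the same cells) in white against 3624 and 2785 in red. In the lateral and medial white zone 84.4% and 66.5% of them fell in a COL2A1-led chondrocyte-like cluster, against 32.6% and 29.2% in lateral and medial red. Most of the others in medial white (29.5%) were in a fibrochondrocyte-like cluster led by OMD and CILP. Markers of endothelial and myeloid cells were higher in the red zone cells. In lateral and medial red 10 endothelial genes summed to 181 and 228 CPM, against 35.1 and 55.1 in white. The 10 myeloid genes summed to 757 and 403 against 33.5 and 23.3. The mural, T or NK cell, mast cell, erythroid and adipocyte lists were also higher in red. Fibroblast genes went the other way, at 37645 and 33425 CPM in red against 40943 and 81698 in white. So did the Schwann cell and B or plasma cell lists, and the fibrochondrocyte and lymphatic endothelial lists were mixed. Of 4 neutrophil markers, 2 had UMIs in white, S100A12 at 24.4 and 2.65 CPM and S100A8 at 0.856 and 0.132 in lateral and medial white, so that their sum (25.3 and 2.78) was nearly all S100A12. The other 2 were at 0 in white, and all 4 were at 0 in both red libraries. The part of these other cell types in the members' red zone values was not tested.

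HPS5 was the most abundant feature of the lateral white library. It had 192642 UMIs in lateral red, 99485 in medial red, 1790229 in lateral white and 455401 in medial white, which ranked it 4th, 7th, 1st and 2nd by UMIs. As a level this was 20053, 8402, 130520 and 30559 CPM. Lateral white stood far above the other libraries, medial white was above both red libraries, and medial red was lowest. Together with ENSSSCG00000013369, HPS5 took 13.6% of all UMIs in lateral white, 3.17% in medial white, 2.04% in lateral red and 0.861% in medial red.

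The size of the HPS5 count stood apart from what surrounds it, in the genome and in the protein complex. HPS3, its partner in BLOC-2, had 68 and 86 UMIs in lateral and medial red and 101 and 145 in lateral and medial white. HPS5 therefore exceeded HPS3 2833-fold, 1157-fold, 17725-fold and 3141-fold in lateral red, medial red, lateral white and medial white. These are counts from 3′ libraries, 1 per molecule, and were not scaled by gene length. The part of gene length in them was not tested. GTF2H1, a subunit of the general transcription factor TFIIH and the nearest gene on 1 side of HPS5, had 277, 385, 241 and 354 UMIs in that order. Its counts were similar in all 4 libraries, while those of HPS5 differed by over 10-fold.

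In RefSeq's Sscrofa11.1 annotation, the build named in the submitters' processing notes, HPS5 lies on chromosome 2 from 40906785 to 40938847. GTF2H1 lies at 40857720 to 40900591, 6193 bases away. On the other side the serum amyloid A cluster begins with the pseudogene SAA1P at 40961342 to 40962170, 22494 bases from HPS5. SAA2 follows at 40972797 to 40976222, SAA4 at 40986869 to 41003059 and SAA3 at 41021349 to 41025950. SAAL1, a gene named for its likeness to serum amyloid A and chosen here after its values were seen, lies at 41028673 to 41054578 and had 51, 77, 131 and 94 UMIs. No serum amyloid A gene was analysed here by name. The identifier that the reference names table pairs with HPS5 (ENSSSCG00000059019) is not the one the files name HPS5. Whether UMIs counted as HPS5 come from serum amyloid A transcripts was not tested, because the reads were not analysed here, and below "HPS5" means the feature of that name.

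ENSSSCG00000013369 has no symbol in the files or the reference table. It had 3462, 2440, 69901 and 17615 UMIs in lateral red, medial red, lateral white and medial white, or 360, 206, 5096 and 1182 CPM. The order of the libraries was that of HPS5. The count of HPS5 UMIs per ENSSSCG00000013369 UMI was 25.6 (95% exact interval 25.4 to 25.8) in lateral white and 25.9 (25.5 to 26.3) in medial white. In the red zone the ratio was higher, at 55.6 (53.8 to 57.6) in lateral red and 40.8 (39.2 to 42.5) in medial red. These intervals, like all below, cover counting error only.

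Across cell clusters of a library the ratio had a narrower range in white than in red. It ran from 23.6 in myeloid-like to 28.8 in fibroblast-like cells of lateral white, and from 23.6 in WIF1-led to 28.4 in mural-like cells of medial white. Even in lateral white the interval of the fibroblast-like cluster (26.2 to 31.8) did not overlap that of the COL2A1-led cluster (25.3 to 25.8). In lateral red the ratio ran from 38.7 (29.6 to 51.6) in 28 WIF1-led cells to 62.3 (54.1 to 72.1) in fibroblast-like cells. In medial red it ran from 30.0 (23.4 to 39.1) in 70 fibrochondrocyte-like cells to 47.0 (40.1 to 55.5) in fibroblast-like cells. The highest white zone cluster was below the lowest red zone cluster, although some of their intervals overlapped.

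**Figure D1:**
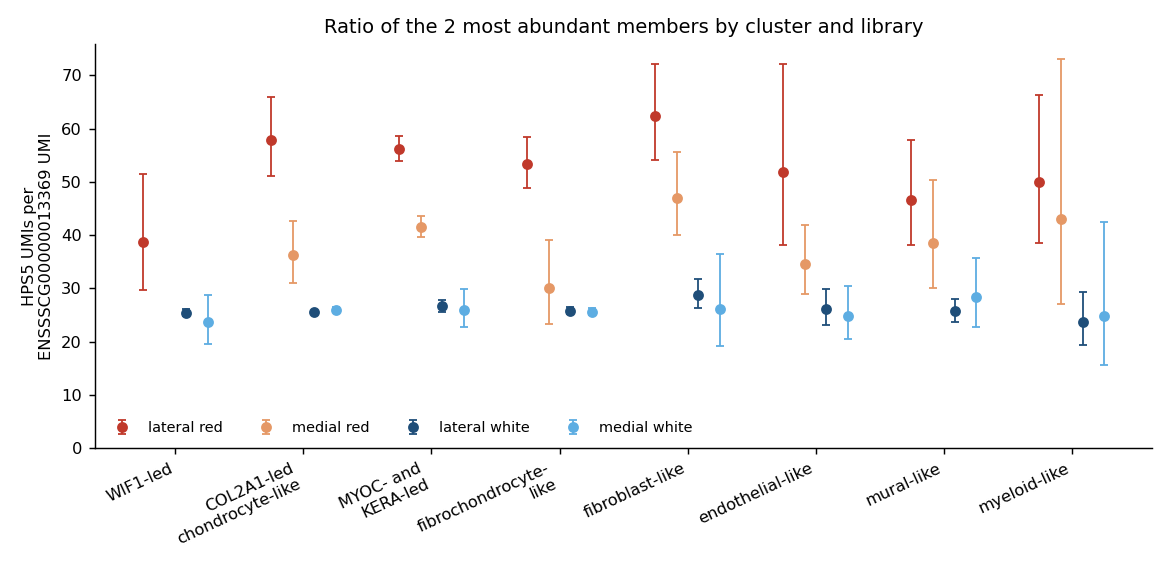
HPS5 UMIs per ENSSSCG00000013369 UMI in each cell cluster (points with exact 95% intervals), coloured by library. The white zone clusters lie between 23.6 and 28.8 and the red zone clusters between 30.0 and 62.3.

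The 4 members with named acute-phase or cartilage roles were 1 to 3 orders of magnitude less abundant than HPS5. LCN2 had 30.1, 42.2, 752 and 281 CPM over all cells of lateral red, medial red, lateral white and medial white, from 289, 500, 10319 and 4191 UMIs. LBP had 26.9, 11.2, 513 and 400. CP, the most abundant of them in medial white, had 32.8, 22.4, 920 and 1048. CHI3L1 was lowest in every library, at 7.18, 3.72, 238 and 38.5. For each of the 6 members both white zone libraries were above both red zone libraries, which the choice of members may fix.

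**Figure D2:**
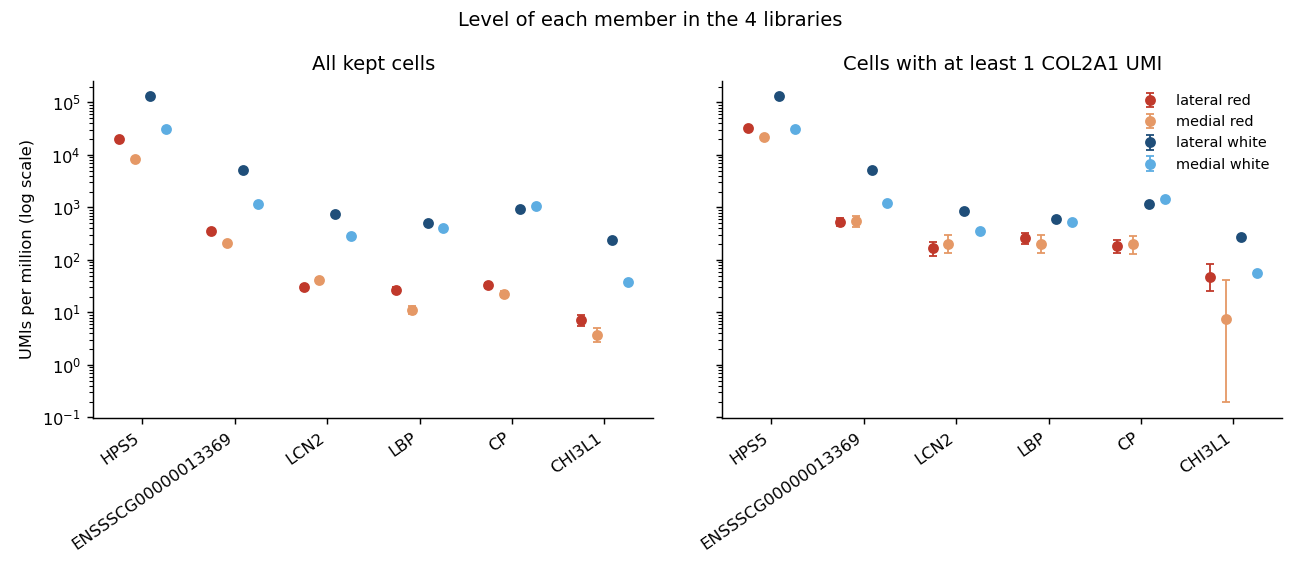
Level of each member in CPM (log axis) over all kept cells and over COL2A1-expressing cells, 1 point per library with exact 95% Poisson bounds that cover counting error only. HPS5 lies above the other 5 members in each library, at 8402 to 130520 CPM over all cells.

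In bulk sums such as these, fewer cells of a type and less RNA per cell cannot be told apart, and COL2A1-expressing cells made up 2.26% and 1.06% of lateral and medial red but 58.6% and 47.0% of lateral and medial white. Within COL2A1-expressing cells the members' levels in the 2 zones were closer. HPS5 had 32752, 22428, 129928 and 31250 CPM in lateral red, medial red, lateral white and medial white. Here medial white was no longer above lateral red. ENSSSCG00000013369 had 531, 540, 5103 and 1204, with both white libraries higher.

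LCN2 had 166, 205, 842 and 360 CPM in these cells, from 45, 27, 7869 and 2717 UMIs. LBP had 258, 205, 606 and 531, and its lateral and medial white values differed little. CP had 181, 198, 1148 and 1431, and was the only member with its highest value in medial white. CHI3L1 had 48.0 (13 UMIs), 7.61 (1 UMI), 277 and 56.6, so that lateral red and medial white were close. The white over red ratio within the medial meniscus was 1.39 for HPS5 and 7.23 for CP, against 3.64 and 46.8 over all cells.

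The edgeR fit over the 4 libraries gave log2 differences, white minus red, of 2.78 ± 0.72 (SE) for HPS5, 3.66 ± 0.43 for ENSSSCG00000013369 and 4.17 ± 0.48 for LCN2 over all cells. In COL2A1-expressing cells they were 1.58 ± 0.31, 2.61 ± 0.28 and 2.00 ± 0.29, and those of LBP, CP and CHI3L1 were 1.64 ± 0.28, 3.10 ± 0.29 and 2.91 ± 0.42. These differences are given with no test.

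Between the menisci, HPS5, ENSSSCG00000013369 and CHI3L1 were lower in the COL2A1-expressing cells of the medial meniscus, while LCN2, LBP and CP did not pass the test. The medial minus lateral log2 difference was -1.42 ± 0.31 (SE) for HPS5 (edgeR quasi-likelihood test with Benjamini-Hochberg adjustment over 9608 genes, adjusted p = 0.00161). It was -1.27 ± 0.28 for ENSSSCG00000013369 (adjusted p = 0.00163) and -2.41 ± 0.35 for CHI3L1 (adjusted p = 3.5e-09). LCN2 gave -0.79 ± 0.28 (edgeR adjusted p = 0.319), LBP -0.35 ± 0.27 and CP 0.14 ± 0.27 (both adjusted p = 1.0). Of all genes 0.552% were called in this comparison (53 of 9608), 0.385% lower and 0.167% higher in the medial meniscus, against 3 of 6 members.

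These calls rest on the white zone pair and on the test. In the white zone the medial over lateral ratio of CPM was 0.241 for HPS5, 0.236 for ENSSSCG00000013369 and 0.204 for CHI3L1. In the red zone it was 0.685 for HPS5 and 1.02 (exact interval 0.754 to 1.36) for ENSSSCG00000013369, so that the red libraries did not show the latter's decrease. For CHI3L1 it was 0.159, from 1 against 13 UMIs, with an exact interval of 0.00373 to 1.06. DESeq2 called none of the 6 members (CHI3L1 adjusted p = 0.0582, HPS5 and ENSSSCG00000013369 1.0) and 0.0324% of all genes. With the zone term left out of the fit, no gene was called, 63 had an unadjusted p under 0.05, and HPS5, ENSSSCG00000013369 and CHI3L1 lost their calls (edgeR adjusted p = 1.0 for each). The fit has 1 residual degree of freedom, and the calls of HPS5 and ENSSSCG00000013369 were lost when any of the 4 libraries, and with it the term for the zone, was left out.

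The HPS5 call was also lost on totals without HPS5 and ENSSSCG00000013369 (log2 difference -1.39, edgeR adjusted p = 0.112), a setting chosen after seeing the data, where the other 2 were called (0.00576 for ENSSSCG00000013369 and 1.8e-10 for CHI3L1). It was lost too at a minimum of 3 COL2A1 UMIs a cell (log2 difference -2.09, edgeR adjusted p = 0.234), and ENSSSCG00000013369 narrowly missed there (-1.76, adjusted p = 0.0704). CHI3L1 kept its call at a minimum of 3 and of 10 UMIs (edgeR adjusted p = 0.000478 and 0.00357) and without lateral red (0.00491), and lost it without medial red, lateral white or medial white (edgeR adjusted p = 0.339, 0.999 and 0.817). Its log2 difference without lateral white was -0.06.

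Over all cells none of the 6 members passed the same test, where 0.024% of genes were called (3 of 12481, with 818 at an unadjusted p under 0.05). Log2 differences were -1.75 ± 0.70 for HPS5 (edgeR adjusted p = 0.712), -1.54 ± 0.40 for ENSSSCG00000013369 (0.512) and -2.11 ± 0.39 for CHI3L1 (0.323). DESeq2 called ENSSSCG00000013369 (adjusted p = 0.000564) and CHI3L1 (0.00014) among 0.361% of its genes. LBP and LCN2 gave -0.85 ± 0.25 and -0.59 ± 0.44, and CP -0.24 ± 0.25 (edgeR adjusted p = 0.573, 0.859 and 0.899).

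Cell by cell, HPS5 varied widely within COL2A1-expressing cells. Its share of a cell's UMIs had a median of 0.60% in lateral red, 0.150% in medial red, 10.2% in lateral white and 0.590% in medial white. The 95th percentiles were 11.9%, 12.8%, 28.9% and 14.1%, and the highest single cells reached 32.4%, 25.6%, 46.0% and 39.6%. In lateral white most cells carried the signal, and 2198 of 4323 had more than 10% of their UMIs from HPS5. In medial white 352 of 3669 did, so a minority of cells held most of it: the 10% of cells with most HPS5 UMIs held 55.5% of HPS5 UMIs in medial white against 33.8% in lateral white.

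**Figure D3:**
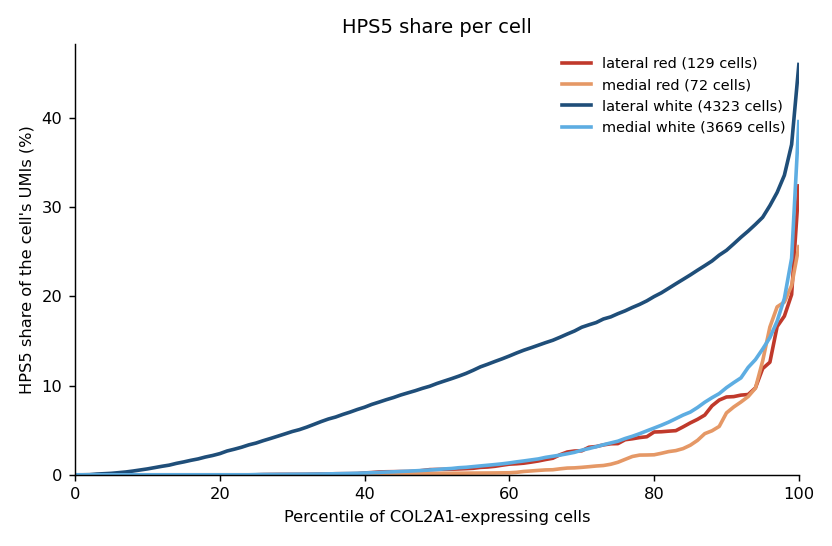
Share of a cell's UMIs from HPS5 (percent) against the percentile of COL2A1-expressing cells, 1 line per library. Lateral white rises through the whole range, with a median of 10.2%. The other libraries have medians of 0.150% (medial red), 0.590% (medial white) and 0.60% (lateral red). At the 75th percentile they reach 1.40%, 3.77% and 3.50% in the same order.

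HPS5 was detected (at least 1 UMI) in 74.4%, 59.7%, 98.0% and 75.5% of COL2A1-expressing cells of lateral red, medial red, lateral white and medial white. With every cell thinned to 1000 UMIs the shares were 74.1% (116 cells), 59.0% (61 cells), 98.0% (3981 cells) and 71.1% (3406 cells). CP was detected in 64.3% and 72.3% of cells in lateral and medial white, and LCN2 in 56.9% and 28.2%. LBP was detected in 50.5% and 41.5%, and CHI3L1 in 32.1% and 8.23%. Thinned to 1000 UMIs, CHI3L1 was in 19.9% and 5.72%.

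The Fano factor, the variance of UMIs over cells divided by their mean after thinning to 1000 UMIs, was 71.5 for HPS5 in lateral white and 86.8 in medial white. It ranked 1st of 1921 and of 2035 genes, ahead of COL2A1 itself at 19.7 and 26.4. A Fano factor of 1 would be counting noise alone. ENSSSCG00000013369 had 3.61 and 4.32, CP 2.27 and 2.51, LBP 1.88 and 2.23, LCN2 1.85 and 2.25, and CHI3L1 1.44 and 1.45 in lateral and medial white. Every member thus had a Fano factor above that of counting alone. Mean UMIs after thinning ran from 0.267 for CHI3L1 to 123 for HPS5 in lateral white, and from 0.0719 to 31.1 in medial white. COL2A1 had means of 9.29 and 13.9. The Fano factor also rises with the mean, so the order of these genes by it was not separated from their abundance.

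HPS5 and ENSSSCG00000013369 went together across cells. Pearson's r of log(1 + UMIs per 10000) was 0.862 in 4323 COL2A1-expressing cells of lateral white and 0.807 in 3669 of medial white. Cells of a library share its depth and any free RNA, so r is a description. HPS5 and LCN2 had an r of 0.326 and 0.427 in lateral and medial white, HPS5 and LBP 0.250 and 0.436, HPS5 and CP 0.275 and 0.290, and HPS5 and CHI3L1 0.267 and 0.242. The other pairs lay between 0.177 and 0.418, weak values in sparse counts.

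Cells sorted by their HPS5 share differed in the other members. COL2A1-expressing cells of each white zone library were split into quartiles of HPS5 share, and levels were taken as CPM of the UMIs left without HPS5 and ENSSSCG00000013369. In lateral white LCN2 went from 388 (95% Poisson bounds 358 to 419) in the lowest quartile through 725 and 1104 to 1592 (1537 to 1650) in the highest. In medial white it went from 74.7 (61.9 to 89.3) through 108 and 353 to 959 (914 to 1006). The highest quartile had 4.11 times the lowest in lateral and 12.8 times in medial white.

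CHI3L1 had the widest range, from 95.6 to 582 in lateral white (6.09-fold) and from 9.33 (15 UMIs) to 148 in medial white (15.9-fold). LBP went from 364 to 954 (2.62-fold) and from 152 to 1135 (7.47-fold), and CP from 726 to 1902 (2.62-fold) and from 955 to 2227 (2.33-fold). COL2A1 ran the other way, from 16461 to 5692 in lateral and from 20823 to 7597 in medial white, 2.89 and 2.74 times lower in the highest quartile. In lateral white the highest quartile had a median of 1499 UMIs besides the 2 features and the lowest 1309, and in medial white 1567.5 and 1529. Mitochondrial UMIs were 1.57% to 1.96% in all 8 quartiles.

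**Figure D4:**
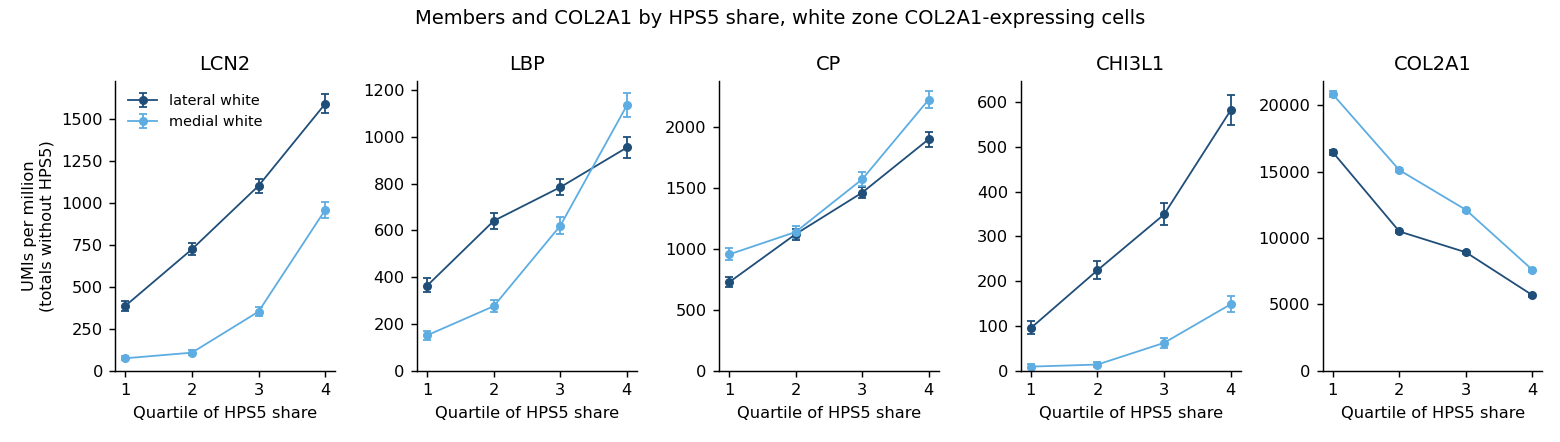
Levels of LCN2, LBP, CP, CHI3L1 and COL2A1 (CPM without HPS5 and ENSSSCG00000013369, linear axes) by quartile of HPS5 share in COL2A1-expressing cells of the 2 white zone libraries, with 95% Poisson bounds. The 4 members are higher and COL2A1 is lower in each next quartile.

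With COL2A1 dose the members differed among themselves. HPS5 in lateral white was 131787 CPM in cells without a COL2A1 UMI, 148397 in cells with 3 to 9 and 104654 in cells with 30 or more. In medial white it was 29850, 43957 and 17979 in the same classes. LCN2 followed the same shape, with 560.2, 922 and 699.8 in lateral and 200.5, 564 and 252 in medial white. CP instead was highest in the cells with most COL2A1, at 435, 1106 and 1405 in lateral and 655, 1492 and 1602 in medial white. Cells with more COL2A1 UMIs also had more UMIs in all, with medians of 1237 and 2268.5 for no and for 30 or more COL2A1 UMIs in lateral white.

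Across cell clusters, built without the members and their listed neighbours, the COL2A1-led chondrocyte-like cluster had the highest LCN2, LBP, CP and CHI3L1 level in every library. LCN2 there was 549, 1059, 976 and 642 CPM in lateral red (71 cells), medial red (49 cells), lateral white (4794 cells) and medial white (3079 cells). LBP was 399, 689, 646 and 774. For these genes the red zone cells of the cluster were close to the white zone cells, in contrast to CP, at 378, 471, 1214 and 1720. HPS5 was 101254, 100609, 145033 and 52769, so that its medial white level was below both red levels in this cluster. In a finer clustering (resolution 1.0) an unnamed cluster led by MYBPH, MAL and SPP1 was higher still in LCN2, at 1412 and 1406 CPM in lateral and medial white, against 597 and 392.2 in the COL2A1-led cluster. CP was highest in the COL2A1-led cluster, at 1718 and 1990 against 1452 and 1973. In the red zone these finer clusters held too few cells for a level, 9 and 9 in the COL2A1-led and 2 and 8 in the MYBPH-led cluster of lateral and medial red. Among the clusters with a level there, LCN2 was highest in a FIBIN-led fibrochondrocyte-like cluster, at 609 CPM in 66 cells of lateral red and 613 in 49 of medial red, against 221 (20 cells) and 112 (38 cells) in the chondrocyte-like clusters of lateral red. LBP in lateral red was 425 in the MSMP-led chondrocyte-like cluster and 381 in the FIBIN-led cluster. The place of LCN2 in the red zone thus depended on the clustering.

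In the red zone most HPS5 UMIs lay elsewhere, in an unnamed cluster led by MYOC, CRABP1, CPXM2, KERA and COL1A1. It held 127415 of 192642 HPS5 UMIs in lateral red and 76458 of 99485 in medial red, at levels of 54060 and 46013 CPM. LBP had 54.3 and 31.3 CPM there in lateral and medial red, above its 26.9 and 11.2 over all cells. The cluster held 49.6% and 39.1% of LBP UMIs. CP was lower there than over all cells, at 17.4 and 14.4 against 32.8 and 22.4. LCN2 had 53.5 and 137, against 30.1 and 42.2 over all cells, with 43.6% and 45.4% of its UMIs. In medial red the fibroblast-like cluster held a further 28.8% of LCN2 UMIs, at 31.9 CPM in 2549 cells.

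CP had a site of its own among vascular cells. In mural-like cells, the smooth muscle cells and pericytes of vessel walls, it was detected in 13.7% (exact 95% interval 11.6 to 16.0) of 991 lateral red cells and 12.2% (10.2 to 14.3) of 1011 medial red cells. In endothelial-like cells it was in 0.193% of 1036 and 0.548% of 1095, with median depths of 1115 and 1413 UMIs against 1330 and 1493 in mural-like cells. Mural-like cells held 54.3% and 57.4% of all CP UMIs in lateral and medial red. LCN2 in mural-like cells was at 0.101% and 1.09%, and LBP at 0.202% and 0.297%.

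**Figure D5:**
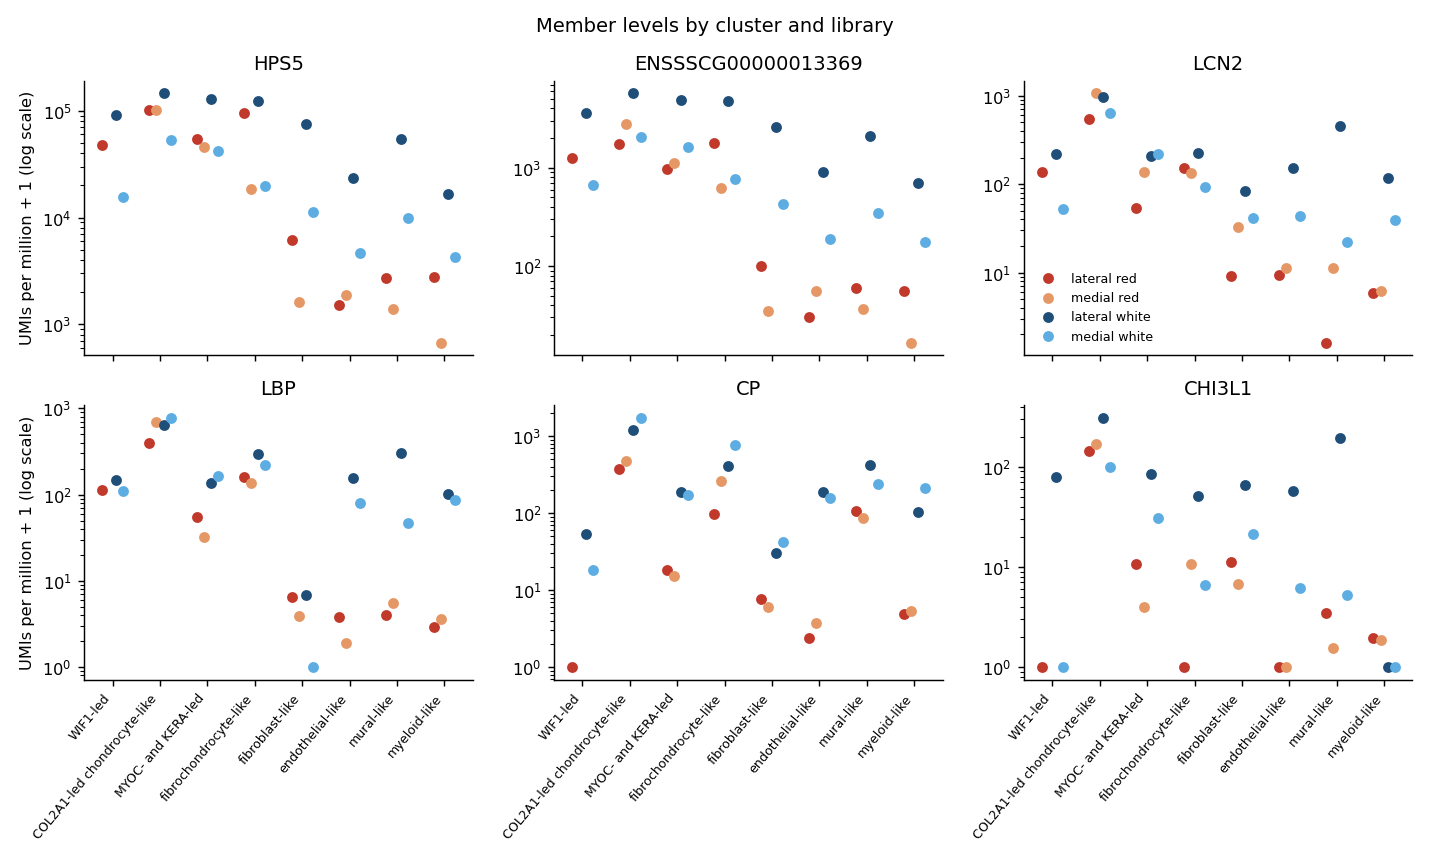
Level of each member (CPM + 1, log axis) in 8 cell clusters, 1 point per library. LCN2, LBP, CP and CHI3L1 are highest in the COL2A1-led chondrocyte-like cluster in all 4 libraries, and CP also stands up in mural-like cells of the red zone.

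Cells of types that should lack cartilage transcripts carried these UMIs in the white zone. HPS5 was in 63.5% of 192 endothelial-like cells of lateral white (23359 CPM) and 27.6% of 301 in medial white (4622), against 19.0% and 11.6% in lateral and medial red (1505 and 1893). COL2A1 in the same cells was 1291 and 872 CPM in lateral and medial white against 4.15 and 20.4 in red. LCN2 was in 7.81% and 3.99% of white zone endothelial-like cells, and CP in 9.90% and 8.64%. The part of free RNA in these values was not tested. The share in endothelial-like cells was below that in the chondrocyte-like cluster for each of these genes, which had HPS5 in 98.5% and 80.0% and CP in 66.6% and 73.5% of lateral and medial white cells at median depths of 1634 and 1501 UMIs, against 973 and 1324 in endothelial-like cells.

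The genes most like the members across COL2A1-expressing cells were taken by the smaller of the 2 white zone correlations among 3226 genes, and all were weak. For HPS5 they were SOD2 (r 0.346 in lateral and 0.405 in medial white), the mitochondrial superoxide dismutase, SPP1 (0.300 and 0.293), the secreted phosphoprotein osteopontin, MT1X (0.272 and 0.262), a metallothionein, IGFBP5 (0.233 and 0.327) and DCN (0.318 and 0.214), the proteoglycan decorin. SPP1 was among the 5 genes of all 6 members, SOD2 and MAL of 4 each. CHI3L1 was most like MYBPH (0.362 and 0.281), and CP most like SPP1 (0.391 and 0.340) and S100A1 (0.292 and 0.293).

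MYBPH and CHI3L1 are neighbours: in RefSeq's Sscrofa11.1 MYBPH lies on chromosome 9 from 113872439 to 113884544 and CHI3L1 from 113885541 to 113895033, 996 bases apart. MYBPH had 44.3, 22.8, 151 and 34.0 CPM in COL2A1-expressing cells of lateral red, medial red, lateral white and medial white, and fell by 2.12 ± 0.33 (log2, medial minus lateral, edgeR adjusted p = 1.87e-07). SOD2 had 1332, 540, 2357 and 1297, and fell by 1.17 ± 0.26 (edgeR adjusted p = 0.00167). Both are lower in the medial library of each zone. The red values come from only 129 and 72 cells, and those of MYBPH rest on few UMIs, so its red zone difference may be counting error. With the zone term left out of the fit no gene was called, so both lost their calls. MT1X gave -0.69 ± 0.26 and SPP1 -0.23 ± 0.26 (edgeR adjusted p = 0.382 and 1.0). With HPS5 and ENSSSCG00000013369 left out of the totals, CLU entered the 5 genes of HPS5 (0.290 and 0.321).

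The 5 genes of HPS5 were picked for their correlation with it in these cells, so their levels by HPS5 quartile are a description that the choice fixes in direction. SOD2 went from 1197 CPM in the lowest to 4320 in the highest quartile of lateral white, and from 432 to 2894 in medial white. SPP1 went from 3427 to 8806 and from 1686 to 6057, and MT1X from 664 to 2518 and from 363 to 1556. IGFBP5 went from 1792 to 3452 and from 1262 to 3800, and DCN, with the narrowest range, from 10804 to 18349 and from 17483 to 24183.

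Most of the other acute-phase proteins called between zones were lower in white. Like the members, the gene lists used from here on were chosen with earlier results of these data known. Their differences between zones are therefore a description, and the p-values given for them are no independent test. Among 21 other acute-phase proteins tested over all cells, 14 were called, 3 higher and 11 lower in white (edgeR), with a median log2 difference of -1.52 against -0.00412 over all 12481 genes. Of all genes 39% were called, 17.3% higher and 21.7% lower in white. Without TMM scaling the median gene shifted to -0.495 and 15% of calls, in place of 44.4%, were higher in white. ITIH4, a liver-type acute-phase inhibitor, had 398, 496, 19.7 and 17.4 CPM in lateral red, medial red, lateral white and medial white, a log2 difference of -4.09 ± 0.24 (edgeR adjusted p = 7.8e-05). SERPING1, the C1 inhibitor, gave -1.96 ± 0.24 (0.000865). FN1 (0.12 ± 0.37) and TNFAIP6 (0.44 ± 0.21) did not pass (edgeR adjusted p = 0.825 and 0.143), and both were negative without TMM. In COL2A1-expressing cells 7 of 15 tested were called (edgeR), 2 higher and 5 lower in white. The share was 46.7%, against 6.32% of all genes (2.95% higher, 3.37% lower). The list's median log2 difference there was -1.4, against 0.126 over all genes.

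S100A12 and MT1A were the acute-phase proteins called between the menisci, in COL2A1-expressing cells. S100A12, a calcium-binding protein best known from neutrophils, had 0, 0, 24.4 and 2.65 CPM in lateral red, medial red, lateral white and medial white, and fell by 3.29 ± 0.56 (log2, edgeR adjusted p = 2.8e-06). MT1A, a metallothionein, had 3.69, 0, 56.2 and 16.7 and fell by 1.86 ± 0.38 (edgeR adjusted p = 0.000492). S100A12 is itself 1 of the 4 neutrophil markers, and of the others S100A8 had 0.856 and 0.132 CPM in lateral and medial white and the remaining 2 were at 0. DESeq2 called neither (adjusted p = 1.0). The other 13 of 15 acute-phase proteins tested in these cells were not called, and the list's median was 0.00845 against 0.00185 over all genes.

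Of 38 signalling genes upstream of the acute phase tested over all cells, 5 were higher and 13 lower in white (edgeR), with a median of -0.41. The share called, 47.4%, was near the 39% of all genes (17.3% higher, 21.7% lower). NFKBIA, the NF-kappaB inhibitor that NF-kappaB itself induces, had 1121, 871, 314 and 215 CPM in lateral red, medial red, lateral white and medial white (log2 difference -1.43 ± 0.23, edgeR adjusted p = 0.00276). NFKBIZ gave -1.02 ± 0.19 (0.00579), and JAK1 (-0.05 ± 0.21) and CEBPB (-0.16 ± 0.25) did not pass (edgeR adjusted p = 0.865 and 0.658). In COL2A1-expressing cells, where 6.32% of genes were called, 2.95% higher and 3.37% lower in white, 3 of 35 were higher and 2 lower. None was called between the menisci in either set of cells.

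Of 8 genes of lipopolysaccharide recognition, where LBP acts, 4 were lower and none higher in white over all cells (edgeR), a share of 50% against 39% of all genes. They include LY96 (-0.74 ± 0.18, adjusted p = 0.0153) and TLR2 (-1.01 ± 0.21, 0.00871). CD14 gave 0.00 ± 0.17 and TLR4 -0.15 ± 0.31 (edgeR adjusted p = 0.987 and 0.737), at 44.8, 36.9, 33.2 and 25.2 CPM for CD14 in lateral red, medial red, lateral white and medial white. In COL2A1-expressing cells none of 4 was called between zones.

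Of the copper and iron genes that act around CP, 8 of 13 were higher and none lower in white over all cells (edgeR), with a median of 0.93. This is 61.5% of the list against 39% of all genes called (17.3% higher). LTF, an iron-binding protein that is also among the acute-phase proteins, is 1 of the 8 (3.35 ± 0.86, edgeR adjusted p = 0.02). It had 1.15, 1.10, 24.7 and 1.07 CPM in lateral red, medial red, lateral white and medial white, so that it was high in lateral white alone and medial white was no higher than red. DESeq2 did not call it (adjusted p = 0.255). HMOX1, which degrades haem, had 97.1, 88.7, 183 and 321 CPM in lateral red, medial red, lateral white and medial white (log2 difference 1.88 ± 0.25, edgeR adjusted p = 0.00129). SLC39A14, a zinc and iron importer, gave 1.41 ± 0.17 (0.000963) and ATOX1, a copper chaperone, 0.76 ± 0.16 (0.00969). FTL, ferritin light chain, gave 0.65 ± 0.35 (edgeR adjusted p = 0.179). Without TMM ATOX1 was at 0.27 (adjusted p = 0.247), while HMOX1 and SLC39A14 kept their calls (0.00033 and 0.00126). In COL2A1-expressing cells 2 of 11 were called, HMOX1 (2.52 ± 0.35, edgeR adjusted p = 1.8e-10) and SLC39A14 (1.72 ± 0.35, 5.45e-05). This is 18.2% of the list, against 6.32% of all genes called in these cells.

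Of 5 partners of LCN2, 3 were called over all cells, 2 higher and 1 lower in white. This is 60% of a short list, against 39% of all genes called (17.3% higher, 21.7% lower). SLC22A17, its receptor, gave 1.07 ± 0.24 (edgeR adjusted p = 0.0117) and BDH2, an enzyme of mammalian siderophore synthesis, 0.70 ± 0.18 (0.0193), while HGF was lower (-3.91 ± 0.33, 0.000198). MMP9, which LCN2 can bind, gave -0.85 ± 0.80 from at most 2.79 CPM in a library. Without TMM neither SLC22A17 (0.58, adjusted p = 0.054) nor BDH2 (0.21, 0.41) passed. In the chitinase family list, 2 of 4 tested were lower in white and none was higher, a share of 50% against 39% of all genes. They are PTGDR2 (-1.82 ± 0.51, edgeR adjusted p = 0.0266) and IL13RA2 (0.0019). IL13RA2 had 39 and 28 UMIs in lateral and medial red and 0 in both white libraries. CHID1 (0.48 ± 0.17) and IL13RA1 (0.18 ± 0.18) did not pass (edgeR adjusted p = 0.0562 and 0.46) and were negative without TMM. None of the genes in these lists was called between the menisci.

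Of 12 genes of the HPS5 protein's own and related complexes tested over all cells, 3 were higher and 2 lower in white (edgeR), with a median of 0.11. The share called, 41.7%, was close to the 39% of all genes. HPS3 had 7.08, 7.26, 7.36 and 9.73 CPM in lateral red, medial red, lateral white and medial white (0.74 ± 0.24, edgeR adjusted p = 0.0431). HPS3 overlaps CP by 12790 bases on chromosome 13 (89360829 to 89409502 for HPS3, 89396713 to 89463540 for CP), and reads in the overlap may not be told apart. AP3D1, a subunit of the AP-3 adaptor, gave 0.53 ± 0.17 (0.0431), and BLOC1S1, AP3B1 and AP3M1 -0.28 ± 0.20, 0.07 ± 0.19 and 0.24 ± 0.18. Without TMM HPS3 and AP3D1 were at 0.25 and 0.03 and did not pass. HPS6 was not analysed here.

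Among the genes listed as neighbours of HPS5, 1 of 6 tested (16.7%) was called between zones over all cells, against 39% of all genes. GTF2H1, LDHA and LDHC lie 6193, 79500 and 96670 bases from HPS5 in RefSeq. The other listed genes named here were not found in the stretch looked at, which reaches TSG101 at 186103 bases. LDHA, the lactate dehydrogenase, had 218, 177, 415 and 358 CPM in lateral red, medial red, lateral white and medial white (log2 difference 1.47 ± 0.20, edgeR adjusted p = 0.00136). GTF2H1 (-0.09 ± 0.18), SPTY2D1 (0.10 ± 0.20), UEVLD (0.55 ± 0.26), LDHC (0.86 ± 0.37) and TMEM86A (-0.63 ± 0.27) did not pass (edgeR adjusted p = 0.718, 0.713, 0.138, 0.103 and 0.1). PTPN5 had 5, 0, 3 and 1 UMIs and was not tested. LDHA was also called in COL2A1-expressing cells (1.06 ± 0.28, edgeR adjusted p = 0.0045). None of the 6 was called between the menisci, where HPS5 in COL2A1-expressing cells was.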

How the data were processed

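The authors' deposited files hold UMI counts per feature and barcode from 10x 3′ v3.1 libraries, counted with Cell Ranger 6.1.2 on Sscrofa11.1 per the submitters' processing notes. Tissue was digested with pronase and collagenase, per the labels. Barcodes with under 500 UMIs, under 200 genes or over 20% mitochondrial UMIs were left out. Of 21280 features 14811 are named in the files, and 688 were named from the reference table, LCN2 among them. Raw counts were summed per library and tested with edgeR 4.0.16 (quasi-likelihood, TMM, filterByExpr, Benjamini-Hochberg, threshold 0.05), with zone and meniscus as terms. With 4 libraries this leaves 1 residual degree of freedom. In simulated counts the fit recovered the median size of planted changes. The simulation held no difference between menisci that varied by zone, so it cannot check the p-values of genes that have one. DESeq2 1.42.0, other scalings, filters and cell sets, and leaving out each library, were alternatives. Scrublet, run in scanpy 1.11.5, called only 0 to 2 cells a library and so did not work. The called cells were left out. As an alternative the 264 to 488 highest scores a library were removed too. Cells were clustered (Leiden, resolution 0.5) without the members and named from fixed markers. Library depth was 9666319 to 14902274 UMIs, and intervals are exact binomial or Poisson at 95%. The members and lists were chosen with earlier results of these data known. Named were all members, the listed neighbours of HPS5, HPS3, the 4 most abundant genes of each other list, any list gene called between menisci, and the 5 genes most like each member.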

Additional observations from a re-analysis of the deposited data

Results flagged for a closer look

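LCN2 and CP differed between the menisci in opposite directions in the 2 zones over all cells. For LCN2, the medial over lateral ratio of CPM was 0.374 in the white zone and 1.40 in the red zone. The red value rests on 500 medial and 289 lateral UMIs, with an exact interval of 1.21 to 1.63 for counting error. For CP the ratio was 1.14 in white and 0.683 in red, the latter from 265 and 315 UMIs (0.577 to 0.806). Each zone has 1 library per meniscus, so the difference between the zones was not tested. In COL2A1-expressing cells LCN2 had 0.427 in white and 1.24 (0.738 to 2.04) in red, and CP had 1.25 and 1.09 (0.653 to 1.80).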

How the results depend on the processing

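Between the menisci over all cells, edgeR called 3 genes. It called 31 without TMM, 137 without the filter on low counts, 7 with all barcodes, 21 with the highest Scrublet scores removed, 13 on totals without HPS5 and ENSSSCG00000013369, and 5 without shared barcodes. DESeq2 called 32. In COL2A1-expressing cells it called 53 genes, and 10 and 9 at a minimum of 3 and 10 COL2A1 UMIs, with 5 by DESeq2; without TMM 48.2% of calls, in place of 30.2%, were higher in the medial meniscus. Between zones DESeq2 called 3164 genes in place of 4869 over all cells and 204 in place of 607 in COL2A1-expressing cells, where minimums of 3 and 10 UMIs gave 61 and 41; without TMM 18.9% of calls there, in place of 46.6%, were higher in white. The totals without 2 features and the removal of shared barcodes were chosen after seeing the data. The numbers given to the libraries follow the meniscus, and no label ties them to an animal. With no replicate block (second term left out), 0 genes were called between menisci in either set of cells and 336 between zones in COL2A1-expressing cells. Leaving out each library, which also leaves out the second term, gave 0 to 0 and 0 to 51 calls between menisci and 2436 to 5466 and 44 to 351 between zones, over all and COL2A1-expressing cells. In that design zone differences enter the comparison of menisci. Over all cells the members' log2 differences (medial minus lateral) then ran from -3.67 to 0.30 (HPS5), -4.27 to 1.31 (ENSSSCG00000013369), -3.77 to 2.80 (LCN2), -5.13 to 3.35 (LBP), -4.97 to 4.44 (CP) and -5.60 to 1.94 (CHI3L1). The lowest were without medial white and the highest without lateral white, and LBP (0.47) and CP (1.03) were also positive without medial red, as was CP with no replicate block (0.053). In COL2A1-expressing cells the ranges were -2.75 to 0.85 for ENSSSCG00000013369, -1.78 to 0.91 for LCN2, -1.31 to 0.67 for LBP and -2.03 to 2.35 for CP, with LBP at 0.28 without medial red and CP at -0.62 without lateral red. CP was also negative at minimums of 3 (-0.18) and 10 (-0.38) COL2A1 UMIs, and the cause was not tested. The HPS5 call was lost on totals without HPS5 and ENSSSCG00000013369 (edgeR adjusted p = 0.112) and at 10 COL2A1 UMIs (0.471). Members' differences between zones kept their sign under every alternative run, from 0.37 to 6.02.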
